A study of Homo sapiens with 28 samples.

Results

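The CYP1 family of cytochrome P450 enzymes has 3 members, CYP1A1, CYP1A2 and CYP1B1, and all 3 were followed here through every library of a toxicant study in HepG2 cells, a human liver cancer line used as a hepatocyte model. They were chosen by gene name, from 63139 gene rows. The study exposed cells, after 24 h without serum, for 24 h to water (H2O), cadmium chloride (CdCl2, 0.5 µM), DMSO, the dioxin TCDD (100 nM), perfluorooctane sulfonate (PFOS, 10 µM), bisphenol A (BPA, 75 µM) or tributyltin chloride (TBTCl, 0.1 µM). DMSO, the solvent of TCDD, PFOS, BPA and TBTCl, was kept at or below 0.1%, and water was the vehicle of CdCl2. Each of the 7 groups had 4 libraries, numbered 1 to 4, from 4 independent experiments with technical triplicates, per the labels. The submitters state in the series text that TCDD and PFOS titles were swapped after submission, and the corrected ones are used here. All groups share 1 cell line and 1 exposure time, and each compound was given at 1 dose.

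CYP1 enzymes sit in the endoplasmic reticulum, take electrons from the reductase POR and oxidise planar aromatic molecules, among them polycyclic hydrocarbons, aromatic amines and estrogens. Their genes are the classical targets of the aryl hydrocarbon receptor AHR, which waits in the cytosol with the chaperones HSP90 and PTGES3, moves to the nucleus when a ligand such as dioxin binds, and there pairs with ARNT on DNA with the core GCGTG. CYP1A1 is barely made in unexposed liver and strongly inducible, CYP1A2 is a constitutive liver enzyme that clears caffeine, and CYP1B1 is made mostly outside the liver and hydroxylates estradiol.

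In the GENCODE 29 annotation of GRCh38, CYP1A1 (ENSG00000140465) lies at chr15:74719542-74725610 on the minus strand and CYP1A2 (ENSG00000140505) at chr15:74748844-74756202 on the plus strand. The pair stands head to head, with 23316 bases between the start sites in RefSeq. CYP1B1 (ENSG00000138061) lies elsewhere, at chr2:38066973-38109902 on the minus strand. Transcripts of CYP1A1 and CYP1A2 share an identical run of at most 40 bases, and CYP1B1 shares at most 13 bases with CYP1A1 and 14 with CYP1A2, against paired reads of 150 bases.

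The 250 bases before the start sites of CYP1A1 and CYP1A2 are shown because the results below turn on how these neighbours respond beside each other. They are taken from RefSeq (GRCh38.p14, 5′ to 3′ on each gene's strand), CYP1A1 from chr15:74725529-74725778 (minus) and CYP1A2 from chr15:74748595-74748844 (plus), and capitals mark the letters GCGTG and TATAAA, searched on both strands. No entry for CYP1B1 was used.
CYP1A1: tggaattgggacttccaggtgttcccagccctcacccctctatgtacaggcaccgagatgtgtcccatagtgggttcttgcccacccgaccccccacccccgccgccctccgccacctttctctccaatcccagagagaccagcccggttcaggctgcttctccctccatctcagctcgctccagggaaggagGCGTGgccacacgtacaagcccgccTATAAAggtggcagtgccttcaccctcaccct
CYP1A2: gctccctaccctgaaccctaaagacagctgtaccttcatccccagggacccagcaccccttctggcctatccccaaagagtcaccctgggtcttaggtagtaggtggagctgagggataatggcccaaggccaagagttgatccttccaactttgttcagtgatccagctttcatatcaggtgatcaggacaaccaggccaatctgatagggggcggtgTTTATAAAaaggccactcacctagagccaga
The CYP1A1 window holds GCGTG once, starting 57 bases before the start site, and TATAAA 32 bases before it. In the CYP1A2 window there is no GCGTG, and TATAAA starts 29 bases before the start site, overlapping its own match on the other strand. The longer form TNGCGTG is in neither window. Among 35116 promoter windows of the same length, 32.2% hold GCGTG, 4.52% hold TNGCGTG and 10.7% hold TATAAA, so the GCGTG match is a common one. These matches describe the letters in this window and are not binding sites.

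CYP1A1 was the most abundant member in each of the 28 libraries. In H2O it stood at 16.1, 13.2, 2.72 and 2.04 CPM (counts scaled to 1 M per library) in replicates 1 to 4, and in DMSO at 9.99, 16.9, 3.73 and 2.82 CPM. TCDD libraries held 2841, 6410, 4959 and 4243 CPM. BPA libraries held 293, 462, 159 and 53.5 CPM. These 2 groups lay wholly above all others, and TCDD wholly above BPA. CdCl2 libraries held 26.5, 36.7, 4.03 and 3.65 CPM, PFOS libraries 16.1, 10.7, 1.50 and 1.68 CPM, and TBTCl libraries 10.5, 18.1, 3.58 and 2.78 CPM. The ranges of CdCl2, PFOS, TBTCl and both vehicles overlapped one another. By mean CPM the order was TCDD (4613 ± 1486, SD, n = 4), BPA (242 ± 176), CdCl2 (17.7 ± 16.5), TBTCl (8.75 ± 7.13), H2O (8.52 ± 7.19), DMSO (8.37 ± 6.54) and PFOS (7.51 ± 7.18). Neighbours from CdCl2 downward did not differ beyond their spread.

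CYP1A2, the constitutive liver enzyme, was almost silent in unexposed HepG2 cells. It gave 4, 7, 6 and 2 counts in the H2O libraries and 1, 9, 2 and 2 counts in the DMSO libraries. TCDD libraries held 418, 1450, 368 and 361 counts, or 8.32, 23.5, 11.0 and 8.52 CPM. In BPA there were 17, 33, 24 and 11 counts, or 0.377, 0.758, 0.795 and 0.227 CPM. All TCDD libraries lay above all BPA libraries, and all BPA libraries above all DMSO libraries. CdCl2 libraries held 12, 41, 6 and 2 counts, a range from the level of water up to that of BPA. PFOS libraries held 2, 5, 3 and 0 counts and TBTCl libraries 0, 2, 2 and 2, at or near the 3 counts below which a value cannot be told from absence. Those 3 counts correspond to 0.0454 to 0.104 CPM at the depths of these libraries. The mean order was TCDD (12.8 ± 7.21 CPM, SD, n = 4), BPA (0.539 ± 0.281), CdCl2 (0.278 ± 0.314), H2O (0.0974 ± 0.0399), PFOS (0.0614 ± 0.0512), DMSO (0.0599 ± 0.0556) and TBTCl (0.0465 ± 0.0318), and TCDD alone was separated from its neighbour in that order.

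CYP1B1, the member made mostly outside the liver, was seen above a few reads in TCDD libraries and nowhere else. They held 324, 374, 182 and 173 counts, or 6.45, 6.06, 5.42 and 4.08 CPM. Counts were 3, 3, 1 and 2 in H2O, 4, 2, 1 and 3 in DMSO, and 5, 9, 2 and 0 in BPA. CdCl2 gave 3, 6, 1 and 0 counts, PFOS 3, 3, 3 and 1, and TBTCl 5, 4, 0 and 2. The 24 libraries outside TCDD thus ranged from 0 to 9 counts and overlapped between all groups. The mean order was TCDD (5.50 ± 1.04 CPM, SD, n = 4), BPA (0.0960 ± 0.0868), TBTCl (0.0743 ± 0.0542), PFOS (0.0621 ± 0.0313), DMSO (0.0539 ± 0.0464), H2O (0.0474 ± 0.0190) and CdCl2 (0.0452 ± 0.0468), and TCDD alone stood apart from its neighbour. The coefficient of variation among TCDD libraries was 18.9% for CYP1B1, 32.2% for CYP1A1 and 56.3% for CYP1A2.

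**Figure D1:**
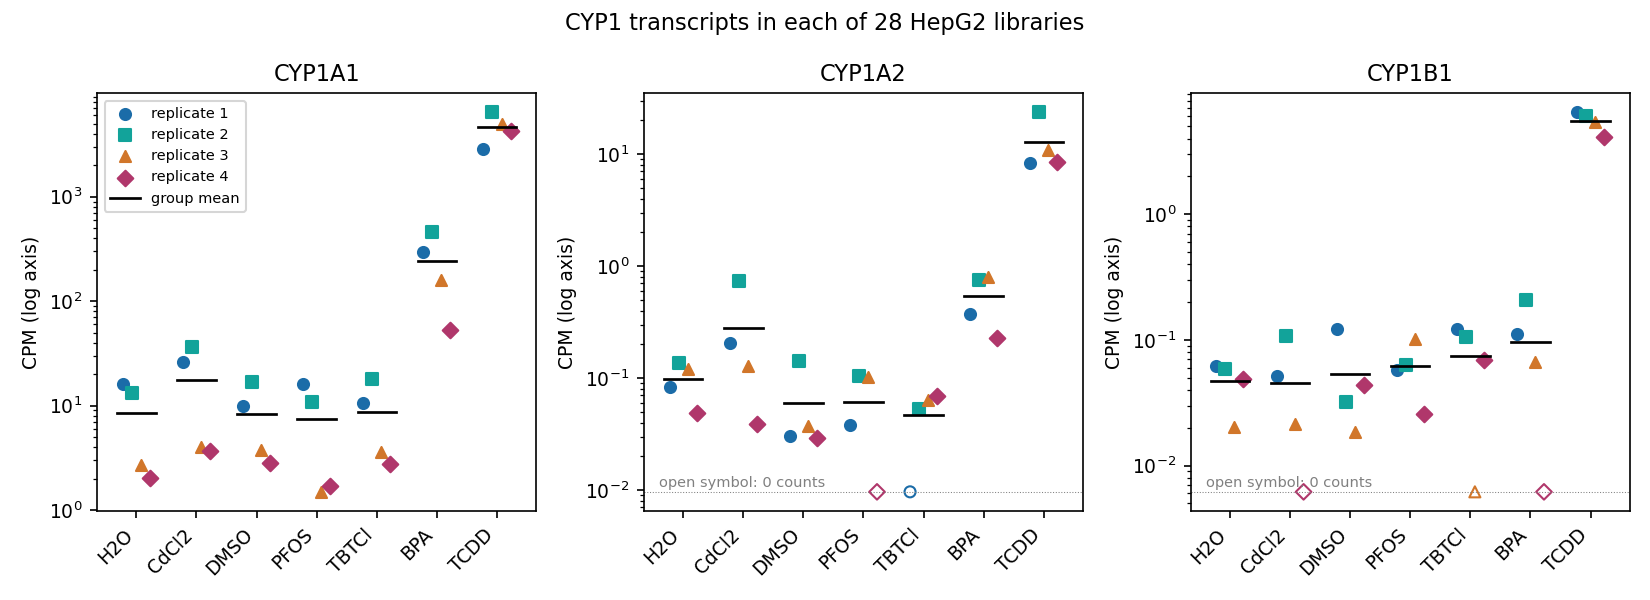
Level of each CYP1 gene in CPM (log axis) in each of the 28 libraries by group, with marker shape for the replicate number, bars for group means and open symbols for 0 counts. TCDD libraries stand highest in all 3 panels (2841 to 6410 CPM of CYP1A1), and BPA libraries stand apart from the vehicles for CYP1A1 and CYP1A2 but not for CYP1B1.

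Compared per length of exon sequence, CYP1A1 in TCDD was at 1343 ± 433 CPM per kilobase (SD, n = 4), CYP1A2 at 4.70 ± 2.64 and CYP1B1 at 0.915 ± 0.172. CYP1A1 then ranked between 25 and 41 among 17989 genes in the TCDD libraries, CYP1A2 between 4614 and 8262, and CYP1B1 between 11479 and 12738. In BPA libraries CYP1A1 ranked between 265 and 3058. Together the 3 genes took 0.288 to 0.610% of all counts in TCDD libraries and 0.00487 to 0.0450% in BPA libraries, against at most 0.00387% in any library of the other groups. Almost all of that share was CYP1A1.

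Library totals ran from 28.9 M to 66.0 M counts (median 46.5 M), and the hepatocyte gene ALB was at 5946 to 24851 CPM in all of them. The listed leukocyte genes PTPRC and CD3E and the stromal gene COL1A2 never passed 0.0236, 0.0222 and 0.0393 CPM, and CD68 and LUM reached 0.383 and 1.51 CPM. Other genes of these lists were higher. LYZ was at 670 to 3359 CPM, ACTA2 at 20.7 to 54.9, PDGFRB at 1.61 to 23.3 and COL1A1 at 0.421 to 3.46. Libraries of a group correlated with each other at a median of 0.979 or above in log2 CPM except TBTCl replicate 4, at 0.958. Over the 8 hepatocyte markers the summed level was 29994 to 45438 CPM in TCDD, 24624 to 38605 CPM in BPA and 35110 to 65085 CPM in DMSO. None of the 8 passed the test in TCDD, where 9.25% of all genes passed. In BPA 3 passed, 1 higher and 2 lower, where 35.0% of all genes passed. The higher call, HNF4A, was lost under other scalings, and ALB, APOA1, TTR and SERPINA1 then passed as lower in BPA. Markers of other cell types in BPA ran lower where they passed. Of those tested, 1 of 1 leukocyte, 1 of 3 endothelial, 1 of 3 biliary and 0 of 4 stromal genes were called as fitted. With the replicate number as a block, 42.9% of all genes passed in BPA. ALB (adjusted p = 0.0214), SERPINA1 (0.0187), COL1A1 (0.0234), SOX9 (0.00646) and EPCAM (0.0418) then joined, each lower. The leukocyte sum, nearly all LYZ, was 670 to 1488 CPM in BPA and 1873 to 2468 CPM in DMSO, and the biliary sum 509 to 558 CPM and 806 to 954 CPM. In TCDD 2 stromal genes passed as fitted, 1 in each direction, and no other marker did. The replicate numbers of TCDD and DMSO could not be taken as pairs. With the block, where 14.4% of all genes passed, CDH5 joined as higher (adjusted p = 0.0341). COL1A1 (0.0241) and KRT19 (0.0313) joined as lower. The part of these markers in the CYP1 results was not tested. In bulk RNA, fewer cells of a kind and less RNA per cell cannot be told apart.

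TCDD raised all 3 CYP1 genes. This comparison asks what the dioxin, the reference ligand of AHR, did to its classical targets. CYP1A1 rose 552-fold over DMSO (95% interval 108 to 2830, 9.11 ± 1.15 SE on the log2 scale, adjusted p = 1.96e-06 by edgeR). CYP1A2 rose 194-fold (74.1 to 509, log2 7.60 ± 0.68, adjusted p = 5.24e-09), and CYP1B1 rose 111-fold (51.0 to 242, log2 6.80 ± 0.55, adjusted p = 9.78e-10). Among 18849 tested genes 9.25% passed this test and 6.45% passed it upward, and in 9.38% all TCDD libraries lay above all DMSO libraries, as they did for the 3 members. CYP1A1 had the largest fitted fold of all tested genes in this comparison, CYP1A2 ranked 7 and CYP1B1 ranked 14. CYP1B1 entered the test through the TCDD libraries alone, since none of the other 24 reached the minimum of 0.215 CPM, so its call carries the filter's own selection. CYP1A2 passed that minimum in 4 TCDD and 5 other libraries, and CYP1A1 in all 28.

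The control side of these folds rests on few reads. From the summed reads, CYP1A2 had 2597 counts in TCDD against 14 in DMSO, a ratio of 216 after scaling with a counting interval of 128 to 395. CYP1B1 had 1053 against 10 counts, a ratio of 122 (66.3 to 256). These intervals cover counting error only. The CYP1A1 interval in the fit was the widest of the 3 although its counts were by far the highest. The biological coefficient of variation was 77.5% for CYP1A1, 55.6% for CYP1A2 and 29.5% for CYP1B1, against 20.1% for the median gene. DMSO replicate 2 had the highest level of CYP1A1 and CYP1A2 among the DMSO libraries. Leaving that library out gave log2 differences of 9.73 for CYP1A1 and 8.52 for CYP1A2, the highest of any single omission. The lowest were 8.81 for CYP1A1, without DMSO replicate 4, and 7.12 for CYP1A2, without TCDD replicate 2.

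BPA raised CYP1A1 and CYP1A2, by less than TCDD. CYP1A1 rose 28.9-fold over DMSO (7.44 to 113, log2 4.86 ± 0.95, adjusted p = 0.000345) and CYP1A2 rose 8.01-fold (2.91 to 22.1, log2 3.00 ± 0.71, adjusted p = 0.00198). CYP1B1 stood at a fitted 1.99-fold (0.711 to 5.57, adjusted p = 0.302), from 16 counts in BPA and 10 in DMSO, and did not pass. Its log2 difference of 0.99 was 0.27 without BPA replicate 2, which held 9 of the 16 counts, and 1.50 without DMSO replicate 1. Of all tested genes 35.0% passed in this comparison and 17.3% passed upward, and in 20.1% all BPA libraries lay above all DMSO libraries, so 2 calls among 3 members stand on a broad background. CYP1A1 nevertheless ranked 8 by fold among all genes, CYP1A2 ranked 40 and CYP1B1 ranked 927. When DMSO replicate 2 was left out the log2 differences were 5.48 for CYP1A1 and 3.92 for CYP1A2, the highest of any single omission. The lowest were 4.34 for CYP1A1, without BPA replicate 2, and 2.72 for CYP1A2, without DMSO replicate 4. The split of all calls between higher and lower, 3268 and 3320, depended on scaling. Upper-quartile factors gave 2239 and 4345, and library size alone gave 2169 and 4321, and the median log2 difference over all genes shifted by -0.13 and -0.12. The calls for the 3 members were the same under these scalings.

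Set directly against BPA, TCDD gave higher levels of all 3 members. The difference was 19.1-fold for CYP1A1 (5.15 to 70.7, log2 4.25 ± 0.92, adjusted p = 0.000703). It was 24.2-fold for CYP1A2 (11.1 to 52.9, log2 4.60 ± 0.55, adjusted p = 3.61e-07) and 55.8-fold for CYP1B1 (26.9 to 116, log2 5.80 ± 0.51, adjusted p = 2.9e-09). Here 38.3% of all genes passed and 20.4% passed with TCDD higher, and the TCDD libraries lay above all BPA libraries in 19.9% of genes. CYP1B1 entered this test too through the TCDD libraries alone, so its call here carries the filter's own selection. The CYP1B1 difference was 6.52 on the log2 scale without BPA replicate 2 and 5.35 without BPA replicate 4. Calls in this comparison also split by scaling, with 3854 higher and 3364 lower as fitted, 4859 and 2434 with upper-quartile factors and 4494 and 2582 with library size alone.

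**Figure D2:**
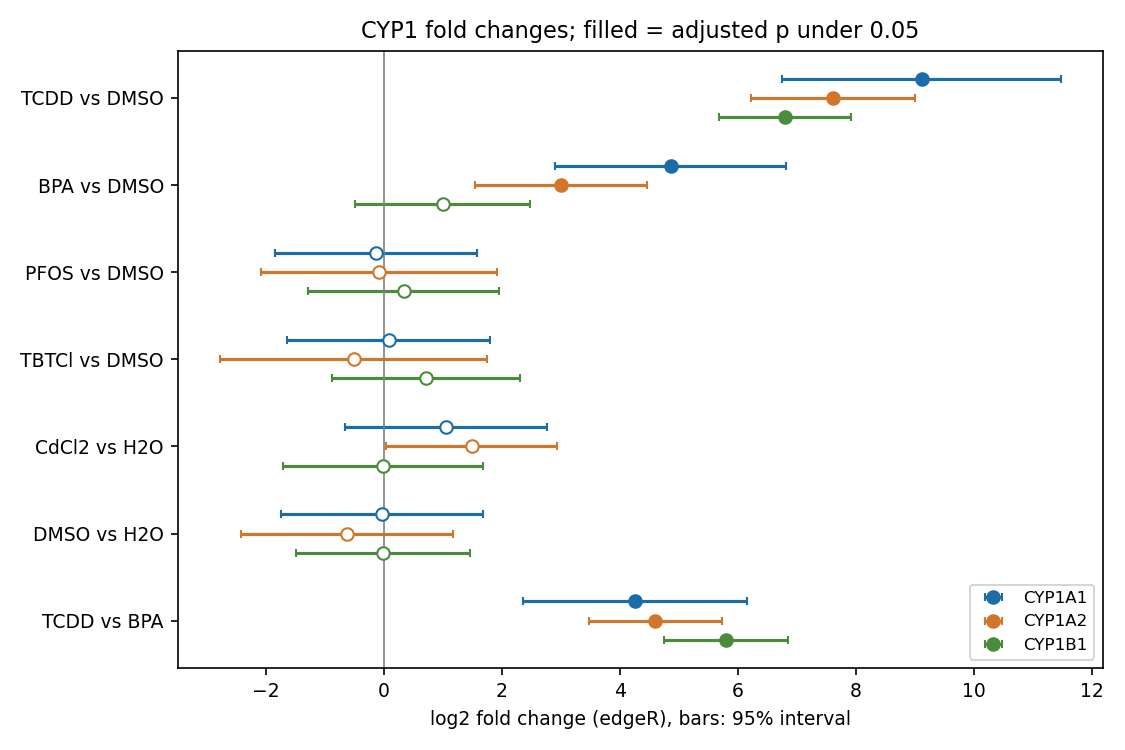
Log2 fold change of each CYP1 gene in 7 comparisons (edgeR, bars are 95% intervals, filled points have an adjusted p under 0.05). Filled points appear in TCDD against DMSO for the 3 genes, in BPA against DMSO for CYP1A1 and CYP1A2, and in TCDD against BPA for the 3 genes.

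The proportion of the members to one another was compared within each library, where no scaling enters. In TCDD libraries CYP1A1 reads outnumbered CYP1A2 reads by 342, 273, 453 and 498 to 1, and in BPA libraries by 778, 609, 200 and 235 to 1. The mean log2 ratio was 8.57 ± 0.39 in TCDD and 8.56 ± 0.98 in BPA (SD, n = 4 each), a difference of 0.016 (two-sided exact permutation test, p = 0.971, adjusted p = 0.971 over the 2 ratios). Leaving out 1 library at a time moved that difference between -0.30 and 0.35. CYP1A1 reads outnumbered CYP1B1 reads by 441, 1058, 915 and 1040 to 1 in TCDD, and by 2645, 2233 and 2402 to 1 in BPA replicates 1 to 3, with no CYP1B1 read in replicate 4. All TCDD ratios lay below all BPA ratios. The mean log2 ratio to CYP1B1 was 9.67 ± 0.60 in TCDD and 11.38 ± 0.65 in BPA, a difference of -1.71 (exact permutation p = 0.0286, the smallest that 4 against 4 libraries allow, adjusted p = 0.0571), which fails after adjustment. It rests on 0 to 9 CYP1B1 reads per BPA library.

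**Figure D3:**
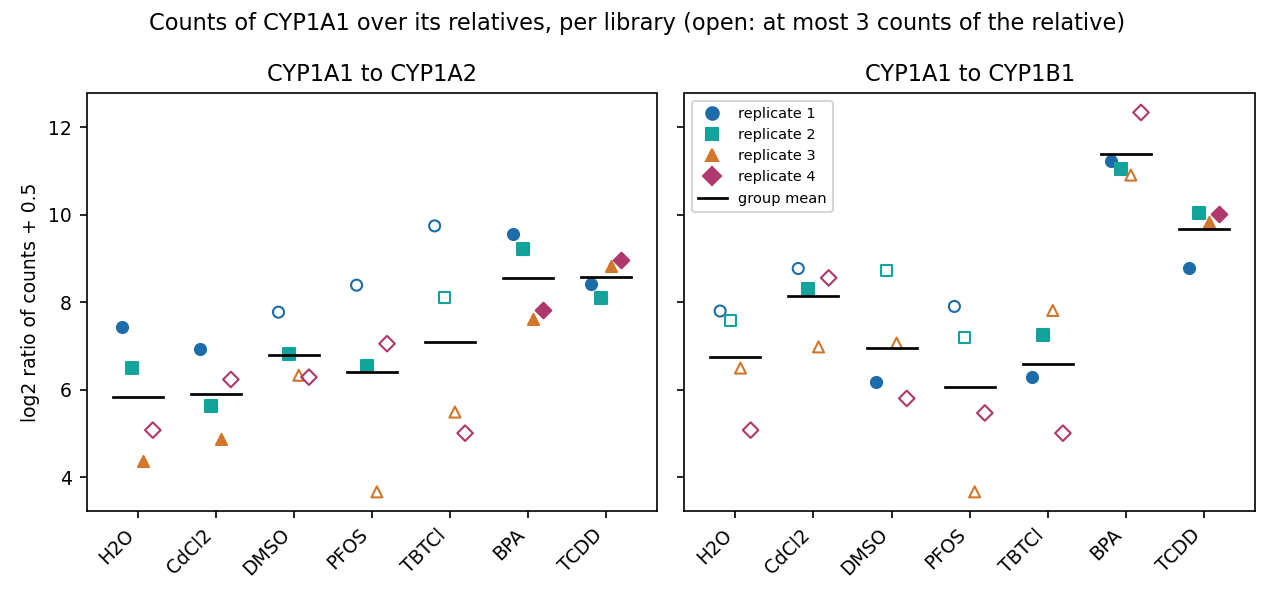
Log2 ratio of CYP1A1 counts to CYP1A2 counts (left) and to CYP1B1 counts (right), each plus 0.5, in every library by group, with bars for means and open symbols where the relative had at most 3 counts. BPA and TCDD overlap on the left (means 8.56 and 8.57), and TCDD lies below BPA on the right (means 9.67 and 11.38).

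PFOS and TBTCl did not move any member past the test. Against DMSO the log2 differences in PFOS were -0.13 for CYP1A1, -0.08 for CYP1A2 and 0.34 for CYP1B1 (adjusted p = 1 for each), while 0.0159% of all genes passed, or 0.446% with the replicate number as a block. The fold for CYP1A1 had an interval of 0.278 to 2.99, or 0.428 to 1.54 with the block, and folds inside these limits remain possible. In TBTCl the log2 differences were 0.08 for CYP1A1 (adjusted p = 0.978), -0.51 for CYP1A2 (0.859) and 0.71 for CYP1B1 (0.691), while 0.143% of genes passed, or 0.950% with the block. No member passed with the block in either comparison. The CYP1A1 fold had an interval of 0.320 to 3.47, or 0.539 to 1.93 with the block. TBTCl and DMSO libraries of the same number differed little, with CYP1A1 ratios of 1.05, 1.07, 0.961 and 0.986. The TCDD, BPA, PFOS and TBTCl comparisons share the same 4 DMSO libraries.

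CdCl2 was compared with water. CYP1A1 stood at a fitted 2.08-fold (0.635 to 6.79, log2 1.05 ± 0.83, adjusted p = 0.9) and CYP1A2 at 2.80-fold (1.03 to 7.59, log2 1.48 ± 0.70, unadjusted p = 0.0442, adjusted p = 0.898), and neither passed. CYP1B1 stood at -0.02 on the log2 scale (adjusted p = 0.998). In this comparison 0.0212% of all genes passed, or 0.149% with the replicate number as a block. CYP1A1 was higher in CdCl2 than in the H2O library of the same number in 4 of 4 cases, by 1.64, 2.77, 1.48 and 1.79 times. With the block its fold was 1.91 (1.02 to 3.55, adjusted p = 0.463), still not past the threshold. The CYP1A2 value rests on CdCl2 replicate 2, which held 41 of the 61 counts of its group, and its log2 difference was 0.34 without that library. The CYP1A1 difference was 0.41 without the same library.

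DMSO itself gave no difference that passed the test from water. The log2 differences were -0.03 for CYP1A1, -0.63 for CYP1A2 and -0.01 for CYP1B1 (adjusted p = 1 for each). The CYP1A2 value was -1.55 without DMSO replicate 2. Of all tested genes 0% passed, with 431 genes at an unadjusted p under 0.05 in edgeR and 1 gene passing in DESeq2. The interval of the CYP1A1 fold was 0.299 to 3.20.

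CYP1A1 split the libraries by replicate number, a pattern chosen here after its values were seen and given with no test. In 6 of 7 groups, all but TCDD, replicates 1 and 2 both lay above replicates 3 and 4. The mean of replicates 1 and 2 over that of 3 and 4 was 6.16 in H2O, 8.22 in CdCl2, 4.11 in DMSO, 8.45 in PFOS, 4.49 in TBTCl and 3.55 in BPA. In TCDD, whose numbers could not be taken as pairs with those of DMSO, it was 1.01. Among all tested genes 122 (0.647%) had replicates 1 and 2 above 3 and 4 in each of those 6 groups, and 120 (0.637%) had the reverse. CYP1A1 had the highest median ratio of the 122, at 5.32. Of the genes on the pathway lists used here, EREG (3.88), ALDH3A1 (3.52) and GSTA1 (2.53) did the same. CYP1A2 had both replicates above in 1 of 7 groups and CYP1B1 in 5 of 7. For CYP1B1 these included TCDD, at 6.45 and 6.06 CPM against 5.42 and 4.08. Outside TCDD CYP1B1 had a few counts per library. The library totals of replicates 1 and 2 each exceeded those of both 3 and 4 in CdCl2, TCDD, PFOS and TBTCl, which was not so in H2O, DMSO or BPA. The part of depth was not tested.

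Ratios of CYP1A1 to the DMSO library of the same number were also taken. TCDD over DMSO of the same number gave ratios of 284, 378, 1330 and 1502. Over all tested genes, TCDD and DMSO libraries of the same number deviated together at correlations of -0.04, -0.05, -0.21 and 0.44. Their numbers could thus not be taken as pairs, and these ratios need not be within 1 experiment. BPA over DMSO gave 29.3, 27.3, 42.7 and 18.9, with replicates 3 and 4 at the highest and the lowest value. The high ratios in TCDD are those of replicates 3 and 4, the lowest DMSO libraries. TCDD levels themselves spanned 2.26-fold from lowest to highest, DMSO levels 6.00-fold and BPA levels 8.64-fold. With the replicate number as a block, the biological coefficient of variation was 40.9% for CYP1A1, 25.9% for CYP1A2 and 24.9% for CYP1B1.

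The receptor complex itself was measured next. Of 9 listed genes of the AHR complex and its feedback loop, all tested, 1 rose and none fell in TCDD, close to the 9.25% called among all genes (median log2 difference 0.12, against -0.01 over all genes). That gene was AHRR, the repressor that competes with AHR for ARNT, which went from 0.0460 ± 0.0378 CPM in DMSO to 1.96 ± 0.130 in TCDD (log2 5.33 ± 0.46, adjusted p = 3.74e-09). Like CYP1B1 it entered the test through the TCDD libraries, being at most 0.207 CPM in any other, so its call carries that selection. AHR stood at 19.8 ± 3.12 CPM in DMSO and 22.2 ± 2.07 in TCDD (adjusted p = 0.622). ARNT stood at 36.1 ± 5.07 and 33.2 ± 2.70 CPM (adjusted p = 0.744). TIPARP, an ADP-ribosyltransferase that restrains AHR, stood at 15.3 ± 2.23 and 20.3 ± 4.87 CPM (adjusted p = 0.158).

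In BPA the receptor gene was the 1 member of that list called, where 35.0% of all genes passed. AHR went to 35.1 ± 4.20 CPM (log2 0.83 ± 0.16, adjusted p = 0.000327), with all BPA libraries above all DMSO libraries, and it was also above TCDD (adjusted p = 0.00208). AHRR stood at 0.0976 ± 0.0762 CPM in BPA (adjusted p = 0.16) and TIPARP at 19.8 ± 2.03 CPM (adjusted p = 0.0984), and ARNT at 38.0 ± 1.53 CPM (adjusted p = 0.774) changed sign between scalings. The list's median log2 difference was 0.07, against -0.02 over all tested ones. With the replicate number as a block, 3 members of the list passed in BPA, since TIPARP (adjusted p = 0.0343) and ARNT2, lower at -0.58 (adjusted p = 0.0495), joined AHR. In PFOS, TBTCl, CdCl2 and DMSO against water none of the 9 passed.

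Other AHR targets included genes called in both compounds and genes called in 1 of them. Of 16 listed, 12 were tested, and 5 rose in TCDD and 6 in BPA, with none lower in either, where 6.45% and 17.3% of all genes passed upward. SERPINB2, 1 of the 5 in TCDD, was at most 0.276 CPM elsewhere. With the replicate number as a block, UGT1A1 (adjusted p = 0.0163) also passed as higher and GSTA2 (-1.16, adjusted p = 0.0367) as lower in BPA. The median log2 difference was 0.65 in TCDD and 0.57 in BPA, against -0.01 and -0.02 over all genes. ALDH3A1, an aldehyde dehydrogenase, went from 3.43 ± 1.90 CPM in DMSO to 362 ± 138 in TCDD (log2 6.74 ± 0.84, adjusted p = 1.61e-06), but stood at 3.99 ± 3.35 in BPA (adjusted p = 0.817). It was 89.9-fold higher in TCDD than in BPA (adjusted p = 9.76e-07). CYP2S1, another inducible P450, showed the other pattern, at 6.60 ± 2.47 CPM in DMSO, 6.47 ± 1.71 in TCDD (adjusted p = 0.975) and 38.4 ± 4.11 in BPA (log2 2.54 ± 0.32, adjusted p = 1.36e-06). It was lower in TCDD than in BPA (adjusted p = 6.66e-07).

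NQO1, a quinone reductase, rose in both compounds, from 331 ± 118 CPM in DMSO to 1470 ± 363 in TCDD (log2 2.15 ± 0.34, adjusted p = 5.81e-05) and 1052 ± 203 in BPA (log2 1.67 ± 0.34, adjusted p = 0.000438). SLC7A5, an amino acid transporter, rose from 660 ± 161 CPM to 2376 ± 343 in TCDD (adjusted p = 1.05e-07) and 1484 ± 97.4 in BPA (adjusted p = 4.51e-05). NFE2L2, which encodes the oxidative stress factor NRF2, rose from 138 ± 10.7 CPM to 230 ± 18.2 in TCDD (adjusted p = 4.47e-06). In BPA it was at 175 ± 22.4 CPM (adjusted p = 0.00766), a call lost under some scalings. EREG, a growth factor of the EGF family, passed in BPA (adjusted p = 0.00262), at 0.659 ± 0.396 CPM in DMSO and 4.90 ± 4.20 in BPA, although the libraries of these groups overlapped. Of the targets named, ALDH3A1 was closest to the CYP1 genes in size of response to TCDD, and unlike CYP1A1 it did not pass in BPA.

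**Figure D4:**
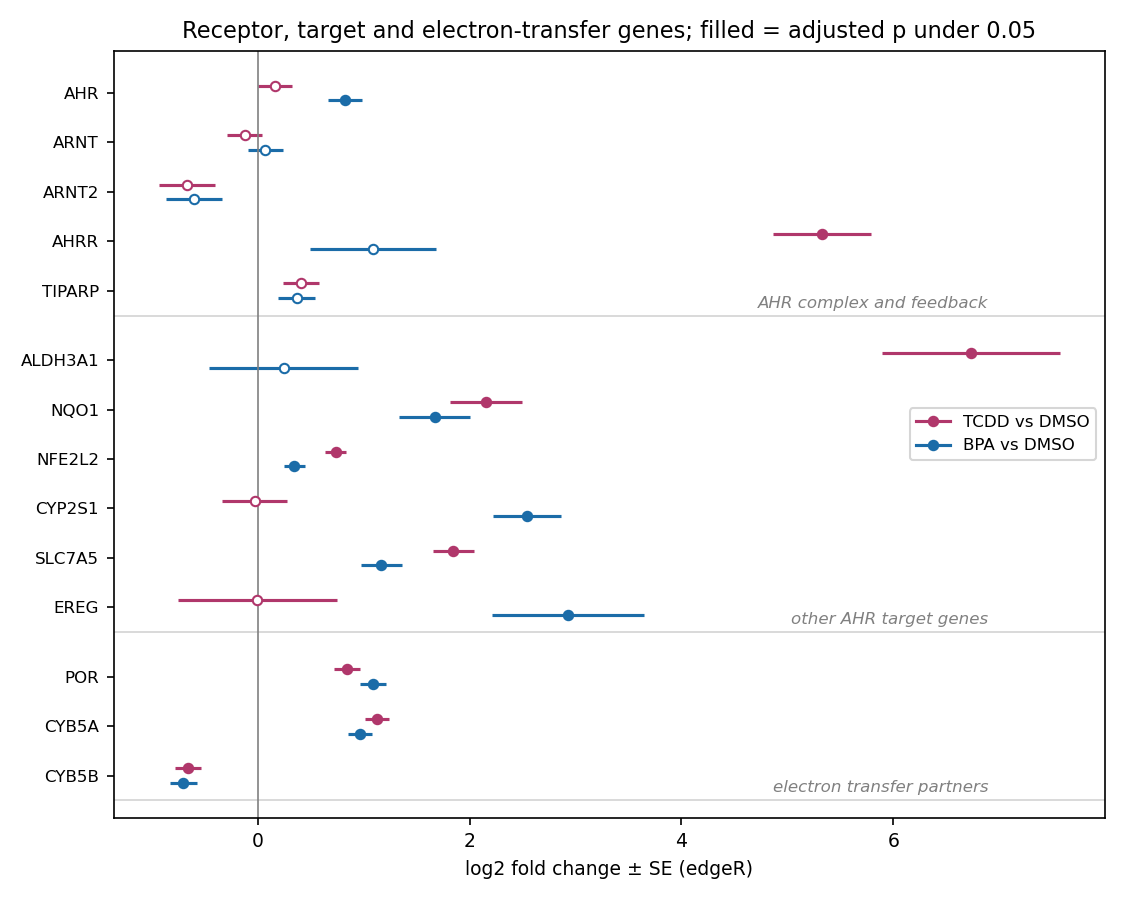
Log2 fold change against DMSO, with SE bars, for the genes named in the text among the AHR complex, other AHR targets and P450 electron transfer partners in TCDD and BPA (filled: adjusted p under 0.05). AHRR (5.33) and ALDH3A1 (6.74) stand out in TCDD, while EREG (2.93), CYP2S1 (2.54) and AHR (0.83) are filled in BPA alone.

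Of 5 genes listed around electron transfer to P450 enzymes, 2 were higher and 1 lower in TCDD. The same 3 genes passed in the same directions in BPA. Among all genes 9.25% passed in TCDD and 35.0% in BPA. POR, the reductase that serves all microsomal P450 enzymes, went from 396 ± 35.6 CPM in DMSO to 710 ± 37.4 in TCDD (log2 0.84 ± 0.12, adjusted p = 1.75e-05) and 844 ± 104 in BPA (log2 1.09 ± 0.12, adjusted p = 2.88e-07). CYB5A, microsomal cytochrome b5, went from 88.4 ± 8.13 to 193 ± 22.9 CPM in TCDD (adjusted p = 5.41e-08) and 172 ± 20.4 in BPA (adjusted p = 5.79e-07). CYB5B, the outer mitochondrial form, fell from 433 ± 56.0 to 274 ± 20.7 CPM in TCDD (adjusted p = 0.000536) and 266 ± 27.5 in BPA (adjusted p = 0.00012). CYB5R3 and PGRMC1, which as fitted passed against DMSO in neither compound, were higher in TCDD than in BPA (log2 0.85, adjusted p = 0.00207, and 0.59, adjusted p = 0.00148). The list's median was 0.60 in TCDD and -0.26 in BPA on the log2 scale. With the block CYB5R3 also passed in TCDD, as higher (log2 0.62, adjusted p = 0.00139), although TCDD numbers could not be taken as pairs. PGRMC1 passed with the block in BPA, as lower (adjusted p = 0.0153). CYB5A was also the one gene of these pathway lists that passed in TBTCl as fitted, at 132 ± 19.8 CPM (log2 0.58 ± 0.11, adjusted p = 0.0343). That call was lost with library size alone, without the filter on low counts and in a fit of the 2 groups alone. With the replicate number as a block GSTA1 (adjusted p = 0.0493), SULT1A2 (0.0452), CYP3A7 (0.0428), CYP4F3 (0.037) and CYP4F12 (0.0171) passed there too, each higher in TBTCl.

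Among 17 listed enzymes that conjugate or reduce CYP1 products, 15 were tested, 4 rose in TCDD and none fell, and in BPA 5 rose and 1 fell. Among all genes 6.45% passed upward and 2.80% downward in TCDD, and 17.3% and 17.6% in BPA. The medians were 0.66 and 0.35 on the log2 scale. With the block UGT1A1 (adjusted p = 0.0163), EPHX1 (0.0493) and AKR1C3 (0.00112) also passed in BPA, as higher. GSTP1, a glutathione transferase that is nearly silent in HepG2, went from 0.0268 ± 0.0198 CPM in DMSO to 2.82 ± 0.561 in TCDD (log2 6.56 ± 0.50, adjusted p = 4.19e-10) and stood at 0.0226 ± 0.0261 in BPA (adjusted p = 0.893). It too entered the test through the TCDD libraries alone, being at most 0.105 CPM elsewhere, so its call carries that selection. SULT1A2, a phenol sulfotransferase, rose from 8.76 ± 1.19 CPM to 18.9 ± 3.93 in TCDD (adjusted p = 2.82e-05) and 18.5 ± 3.90 in BPA (adjusted p = 2.52e-05), and SULT1A1 rose in TCDD (adjusted p = 0.0136). The ketosteroid reductases AKR1C1 and AKR1C2 rose in BPA, AKR1C1 from 330 ± 197 to 1995 ± 582 CPM (adjusted p = 0.000155) and AKR1C2 from 41.3 ± 21.2 to 356 ± 148 CPM (adjusted p = 1.38e-05). SULT1E1, the estrogen sulfotransferase, fell in BPA from 0.800 ± 0.371 to 0.123 ± 0.0776 CPM (adjusted p = 0.00106). The SULT1A and AKR1C genes are near copies of one another, so reads could be split between them.

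Of 16 other drug-metabolising P450 genes listed, 12 were tested, 3 rose in TCDD and none fell, while in BPA 6 rose and 1 fell, with medians of 0.03 and 0.57 on the log2 scale. These counts stand beside 6.45% higher and 2.80% lower among all genes in TCDD, and 17.3% and 17.6% in BPA. With the block CYP2D6 also passed in BPA, as lower (adjusted p = 0.0149). In TCDD the 3 were CYP3A5 (3.31 ± 1.27 to 8.49 ± 3.62 CPM, adjusted p = 0.0239), CYP2E1 (0.128 ± 0.114 to 0.446 ± 0.184 CPM, adjusted p = 0.0334) and CYP4F12 (19.5 ± 3.34 to 30.3 ± 3.83 CPM, adjusted p = 0.0329), the last of which lost its call under another scaling. In BPA the 4 with the smallest p were CYP4F3 (adjusted p = 2.75e-06), CYP4F11 (1.38e-05), CYP3A5 (4.86e-05) and CYP3A4 (0.00126). CYP3A5 reached 17.7 ± 5.93 CPM there. The CYP3A and CYP4F genes are also sets of close copies. The largest of these TCDD folds was that of CYP2E1, at 3.41.

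In TCDD the tested genes next to the CYP1 loci differed far less than the members themselves. In BPA this held near CYP1A1 and CYP1A2 only, since near CYP1B1 the neighbour RMDN2 passed and CYP1B1 did not. Within 100 kb of CYP1A1 and CYP1A2 lie 10 annotated genes, of which 5 were tested. In TCDD 1 of the 5 passed, the kinase gene CLK3 (log2 0.39 ± 0.11, adjusted p = 0.0203), where 9.25% of all genes passed. CSK (log2 0.44 ± 0.13, adjusted p = 0.00938) and ULK3 (0.32 ± 0.11, adjusted p = 0.0276), both kinase genes, passed in BPA, though their calls depended on scaling. In BPA 35.0% of all genes passed. CSK in TCDD (adjusted p = 0.0448) and CLK3 in BPA (0.0283) also passed as higher with the block. TCDD numbers could not be taken as pairs with those of DMSO. Of 8 genes near CYP1B1 only RMDN2 was tested. It overlaps the end of CYP1B1 on the other strand and stood at 2.26 ± 0.407 CPM in DMSO, 3.05 ± 0.763 in TCDD (adjusted p = 0.19) and 1.05 ± 0.180 in BPA (log2 -1.11 ± 0.21, adjusted p = 0.000184). CYP1B1-AS1, the antisense gene across CYP1B1, was low in both groups, 0.120 ± 0.0465 CPM with TCDD and 0.0672 ± 0.0475 CPM with DMSO, below the minimum for testing. Whether counting used strand is not stated in the labels, so reads of CYP1B1 and its overlapping partners may not be fully separated.

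The genes most like each member were ranked by Pearson correlation of log2 CPM, a description without a test, in which the 4 TCDD libraries carry most of the range. Over 28 libraries CYP1A1 was nearest to ADRA1D (0.975), CCNJL (0.962), WNT11 (0.941), TPPP (0.941) and FMOD (0.935). ADRA1D, an adrenergic receptor gene, shared the order of the 3 main groups, at 2.14 ± 0.278 CPM in DMSO, 8.82 ± 1.72 in BPA and 36.1 ± 4.82 in TCDD. CYP1A2 was nearest to TMEM156 (0.956), ADRA1D (0.954), C5AR2 (0.949), DYNLRB2-AS1 (0.949) and FBXO25 (0.948). CYP1B1 was nearest to LRRC25 (0.968), CDX2 (0.965), GSTP1 (0.965), NCCRP1 (0.963) and ALPL (0.960). CDX2, an intestinal transcription factor gene, stood at 0.202 ± 0.123 CPM in DMSO, 0.167 ± 0.0713 in BPA and 19.3 ± 2.58 in TCDD, which is the CYP1B1 pattern.

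Without the TCDD libraries the neighbours changed. Over the remaining 24, CYP1A1 was nearest to CD22 (0.963), NOS3 (0.955), AKR1B10 (0.940), FLCN (0.936) and ADRA1D (0.930), so ADRA1D is on both lists. NOS3, the endothelial nitric oxide synthase gene, stood at 37.4 ± 8.71 CPM in DMSO, 121 ± 46.6 in BPA and 48.3 ± 10.3 in TCDD, unlike CYP1A1 in the last. CYP1A2 was nearest to AKR1C1 (0.862), AQP8 (0.858), CACNG4 (0.841), CPLX1 (0.840) and LINC01484 (0.839). For CYP1B1, at 0 to 9 counts in these libraries, the highest was FAM222A-AS1 at 0.693, followed by TINCR (0.691), NOSTRIN (0.685), KLHL4 (0.683) and MLLT11 (0.683). Among the members, CYP1A1 and CYP1A2 correlated at 0.929 over 28 libraries and 0.764 over 24. CYP1A1 and CYP1B1 did so at 0.862 and 0.464, and CYP1A2 and CYP1B1 at 0.892 and 0.293. The libraries behind these values share groups, replicate numbers and a range of depth.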

How the data were processed

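Poly(A) RNA of 28 HepG2 libraries was sequenced by the authors as paired 150-base reads from directional libraries, per the labels' protocols. The authors deposited 1 table of raw counts per gene. The submitters' processing notes name fastp, STAR, HTSeq and DESeq2 with build GRCh38; versions, annotation release and strand setting were not given in the sources used here. Because the deposited file ends without a line break, the last of its 63140 rows was dropped. Symbols were found for 62541 identifiers, and positions were taken from GENCODE 29 (58126 identifiers).

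Genes were kept by filterByExpr with a minimum count of 10 (18849 genes, 99.96% of counts) and fitted with edgeR 4.0.16 in R 4.3.3 by the quasi-likelihood test, with TMM factors (0.861 to 1.07), all 7 group means in 1 fit and 21 residual degrees of freedom. P-values were adjusted by Benjamini-Hochberg over all tested genes, with a threshold of 0.05. CPM values are TMM-scaled, and log2 CPM used a prior count of 2. The common biological coefficient of variation was 22.0%. The fit was tested on simulated data. Ratios between members used counts plus 0.5 and a two-sided exact permutation test. The 3-count floor and the 95% counting intervals cover counting error only, since the reads carry no molecular identifiers.

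Alternatives were DESeq2 1.42.0, 3 other scalings, no filter or a stricter one, fits of the 2 groups compared, the replicate number as a block, each replicate left out, and, added after seeing the data, TBTCl replicate 4 left out. Same-numbered libraries deviated together, with correlations from 0.123 to 0.627 in every pair of CdCl2 and H2O, PFOS and DMSO, TBTCl and DMSO, BPA and DMSO, and DMSO and H2O, so the numbers were taken as pairs there. TCDD numbers could not be taken as pairs with those of DMSO or BPA, so blocked calls in TCDD rest on no shown pairing. The reported tests have no block, and blocked values or counts are given for many, not all, of the calls that differ. No label says that a number marks 1 experiment, so p-values measure the spread between these libraries. The members, the gene lists and the tests were chosen with earlier results of these data known. Named genes are the members, the 5 most similar genes to each over 28 and over 24 libraries, AHR, ARNT, AHRR and TIPARP, up to 4 genes past the test per list in TCDD and BPA by smallest p, list genes past the test elsewhere, and called neighbours. SULT1E1, SERPINB2, CYB5R3, PGRMC1, the marker genes and the genes added by the block, outside this rule, were named after their values were seen. Counts cover whole lists, and not every listed gene is reported by name here.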

Additional observations from a re-analysis of the deposited data

Results flagged for a closer look

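Of 25 sets of 4 libraries examined, in each group and for each member level or ratio, 2 had a library far from the other 3, where chance gives about 1 in 20. CYP1A2 in DMSO replicate 2 stood at 0.143 CPM (9 counts) against 1 or 2 counts in the other DMSO libraries, and the gap took up 0.929 of the range of the group. That library weighs on the TCDD and BPA folds of CYP1A2, which were 8.52 and 3.92 on the log2 scale without it. The log2 ratio of CYP1A1 to CYP1B1 in TCDD replicate 1 was 8.78 against 9.83 to 10.05 in the other TCDD libraries, with a gap of 0.833 of the range. It had the lowest CYP1A1 level and the highest CYP1B1 level of the 4.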

How the results depend on the processing

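No call for a CYP1 gene was lost or gained under any alternative run, from DESeq2 to leaving out each library. With the replicate number as a block, TCDD over DMSO was 9.79 for CYP1A1 on the log2 scale and TCDD over BPA was 4.92, where the numbers could not be taken as pairs, and BPA over DMSO was 4.87 for CYP1A1 and 3.11 for CYP1A2. In 21 of 28 libraries the best correlated library of another group had the same number. The block changed no member's call. Signs turned only among small uncalled differences. For DMSO against water, CYP1A1 was 0.085 with the block and 0.071 with the block and without TBTCl replicate 4, and CYP1B1 was 0.0025 with upper-quartile factors, 0.0093 with library size alone, 0.00099 without the filter, 0.053 with the block and 0.050 with the block and without TBTCl replicate 4. CYP1B1 in CdCl2 was 0.018 with library size alone, and the ratio of CYP1A1 to CYP1A2 between TCDD and BPA was -0.014 with a pseudocount of 0.1. Leaving out 1 replicate at a time gave -0.84 to 0.49 for CYP1A1 and -0.55 to 0.84 for CYP1A2 in PFOS, -0.55 to 0.70 and -0.79 to 0.41 in TBTCl, -0.66 to 0.47 for CYP1A1 and -0.53 to 0.24 for CYP1B1 in DMSO against water (CYP1A2, with no turn, -1.55 to -0.35), -0.83 to 0.36 for CYP1B1 in CdCl2, and -0.30 to 0.35 for the CYP1A1 to CYP1A2 ratio. The cause of these turns was not tested. Counts of all called genes moved more. The block gave 2722 for TCDD (1743 as fitted), 84 for PFOS (3), 179 for TBTCl (27) and 28 for CdCl2 (4). DESeq2 gave 127, 250 and 15 for the last 3 and 1 for DMSO against water, where edgeR gave 0. Without the filter they were 78, 111 and 25, and in fits of the 2 groups 0, 1 and 0. Library size alone gave 9 for TBTCl and upper-quartile factors 23 for PFOS. Leaving out 1 library gave 0 to 2 for PFOS, 5 to 185 for TBTCl and 3 to 10 for CdCl2 (5 without DMSO replicate 3, 185 without TBTCl replicate 2, 10 without CdCl2 replicate 4), and without TBTCl replicate 4 PFOS gave 58. Block and that omission together gave 3799, 200, 84 and 36 for TCDD, PFOS, TBTCl and CdCl2. Of the lists, AHR complex members passing in BPA were 1 as fitted, 2 with upper-quartile factors or library size alone, 3 with the block and 4 in the fit of the 2 groups. With the block, listed AHR targets passing in TCDD were 9, with GSTA1 and GSTA2 lower (5 as fitted, none lower), product enzymes 9, with GSTA1 and EPHX1 lower (4, none lower), other P450 genes 5, with CYP4F2 lower (3, none lower, and 5 without the filter) and AHR complex members 2 (1). In TBTCl the block gave 1 AHR target, 2 product enzymes and 3 other P450 genes (0 each as fitted, 1 other P450 gene in DESeq2), and in CdCl2 1 other P450 gene, CYP4F12, as lower (0). CYB5A in TBTCl was lost, and CYB5R3 in TCDD was gained with the block, as given above. CYP1A2 outside TCDD and BPA, and CYP1B1 outside TCDD, rest on few reads, which widens their intervals.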
